A study of Mus musculus with 22 samples.

Results

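Gata1, Zfpm1, Klf1, Epor, Tfrc, Ermap, Rhd, Car1 and Car2, genes of the red cell program, were followed in RNA sequencing libraries of LSK cells. LSK is a sorting gate for mouse bone marrow cells that lack lineage markers and carry Sca-1 and Kit, and it is rich in hematopoietic stem cells and multipotent progenitors. The genes were chosen with earlier results of these data known. They were taken by their symbols, and all 9 were found among the 33641 gene symbols of the deposited tables. All 9 also passed the low-value filter, a mean over the libraries of 1 TPM or more (TPM being transcript abundance per length, scaled to a fixed total in each library), which left 13162 genes to test.

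The cells came from C57BL/6 mice of 4 genotypes with 3 libraries each, written in the labels as Chd8-/-P53-/- (the double knockout, DKO), Chd8-/- (Chd8 KO), P53-/- (P53 KO) and WT. Every label, WT included, gives an injection of pI;pC to induce deletion and a harvest 6 days after deletion, and the sorted cells went into libraries without culture. The promoter that drives the deletion, and whether each library is 1 animal, are not stated in the labels. The p-values therefore set differences between groups against the spread of these libraries, and part of that spread may be technical. Whether they hold for other mice is not known. Samples for ATAC-seq (4) and CUT&RUN (6) belong to the same series and were not analysed here. The comparisons ask how these genes differ when the chromatin remodeler CHD8 is lost, and whether that changes when P53 is lost as well.

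GATA1 is the zinc-finger factor that binds GATA sites and turns on most red cell genes, and ZFPM1 (FOG-1) is its cofactor, which also serves megakaryocytes. KLF1 binds CACCC boxes and acts with GATA1 on globin, membrane and heme genes. Erythroid progenitors gain EPOR, the erythropoietin receptor, and large amounts of TFRC, the transferrin receptor that brings in iron. They make membrane proteins of the red cell later. LSK cells stand upstream of these steps. RNA of such genes there is known from cells that begin to turn to the megakaryocyte and erythroid side.

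Promoter windows from RefSeq (GRCm38.p6), running from 250 bases before to 50 bases after a start site, were found for 7 of the 9 genes. No window was found for Car1 and Car2. A GATA word (AGATAA or AGATAG, or else TGATAA or TGATAG, on either strand) stood once in the windows of Klf1, Ermap, Epor and Rhd. It stood nowhere in those of Gata1, Tfrc (2 windows) and Zfpm1. Over all 32851 windows, 29.8% held such a word. A CACCC or GC box word (CCACACCC, CCACGCCC, CCCCACCC or CCCCGCCC on either strand) was held by 29.7% of all windows, by 2 matches in Epor, 1 in Rhd and in Gata1, 4 in Zfpm1, 1 and 2 in the windows of Tfrc, and none in Klf1 and Ermap. The 2 windows of Tfrc overlap and share 1 of their CACCC or GC box matches. The 4 windows with a GATA word, and that of Zfpm1 for contrast, are shown in 5′ to 3′ direction of the gene, with both kinds of word in capitals.
Klf1, chr8:84901732-84902031, plus strand: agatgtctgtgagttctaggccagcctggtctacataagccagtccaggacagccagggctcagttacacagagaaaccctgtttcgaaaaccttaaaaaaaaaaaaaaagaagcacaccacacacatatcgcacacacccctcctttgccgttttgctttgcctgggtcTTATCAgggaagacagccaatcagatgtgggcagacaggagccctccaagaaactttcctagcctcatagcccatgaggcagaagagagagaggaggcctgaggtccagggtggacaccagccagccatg
Ermap, chr4:119189946-119190245, minus strand: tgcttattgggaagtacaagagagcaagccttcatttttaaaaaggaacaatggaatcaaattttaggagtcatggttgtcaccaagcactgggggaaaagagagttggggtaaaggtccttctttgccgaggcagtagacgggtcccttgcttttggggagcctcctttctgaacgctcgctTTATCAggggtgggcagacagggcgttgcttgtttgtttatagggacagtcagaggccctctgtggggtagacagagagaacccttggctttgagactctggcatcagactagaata
Epor, chr9:21963527-21963826, minus strand: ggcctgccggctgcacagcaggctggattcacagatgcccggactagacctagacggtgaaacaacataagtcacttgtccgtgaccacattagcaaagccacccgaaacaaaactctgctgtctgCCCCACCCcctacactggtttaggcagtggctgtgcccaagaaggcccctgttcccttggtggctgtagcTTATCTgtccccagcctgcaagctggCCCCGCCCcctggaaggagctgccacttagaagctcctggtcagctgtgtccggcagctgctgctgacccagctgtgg
Rhd, chr4:134864286-134864585, plus strand: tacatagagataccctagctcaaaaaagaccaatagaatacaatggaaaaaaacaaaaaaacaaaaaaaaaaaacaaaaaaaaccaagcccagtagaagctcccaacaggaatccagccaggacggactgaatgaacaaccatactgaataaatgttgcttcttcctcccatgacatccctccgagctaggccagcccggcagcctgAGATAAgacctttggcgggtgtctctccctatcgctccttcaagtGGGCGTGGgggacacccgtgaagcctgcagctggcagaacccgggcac
Zfpm1, chr8:122281891-122282190, plus strand: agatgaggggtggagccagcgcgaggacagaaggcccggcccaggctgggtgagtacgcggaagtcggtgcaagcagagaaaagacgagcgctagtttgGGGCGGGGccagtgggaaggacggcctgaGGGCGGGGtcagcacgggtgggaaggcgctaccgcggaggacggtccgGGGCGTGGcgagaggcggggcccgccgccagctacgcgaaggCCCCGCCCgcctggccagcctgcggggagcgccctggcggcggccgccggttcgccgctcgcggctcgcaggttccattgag
In Klf1 the GATA word, read on the other strand as TTATCA, lay 80 to 75 bases before the start. It lay 67 to 62 bases before the start in Ermap, 54 to 49 in Epor and 43 to 38 in Rhd. A match of letters is a description and was not tested as a binding site. The start site of the Gata1 window lies 8753 bases downstream of the annotated gene start, and that window is not shown.

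Before the genes themselves, 4 facts of the libraries bear on them. Trp53 was lower in DKO (log2 fold change -3.82) and in P53 KO (-3.52) than in WT. Chd8 was lower in Chd8 KO than in WT (-1.03, adjusted p = 0.00357) and in DKO than in P53 KO (-0.58, adjusted p = 0.0486). By limma it did not pass in DKO against WT (-0.59, adjusted p = 0.078) or in DKO against Chd8 KO (0.44, adjusted p = 0.133). Its libraries ran from 34.8 to 44.4 TPM in DKO, 26.2 to 35.6 TPM in Chd8 KO and 48.2 to 73.9 TPM in WT. Part of its RNA thus remained, and which part of the gene was deleted is not stated in the labels. P53 KO replicates 1 and 2 belong to another sequencing run than the other 10 libraries, per the names of the tables. Their mitochondrial share of TPM was 2.12% and 1.90%, while all others had 5.33% to 6.97%. In DKO replicates 2 and 3 the 4 globin genes summed to 811 and 1050 TPM, while no other library passed 174 TPM. The 4 Y-linked genes summed to 1.80 to 2.03 TPM in DKO and to 94.2 to 116 TPM in Chd8 KO, while both P53 KO and WT held libraries near 1 TPM and libraries over 50 TPM. The LSK markers Kit, Ly6a (Sca-1), Cd34, Flt3, Slamf1 and Procr were each at 1 TPM or more in every library.

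Of the 9 genes, 6 fell in Chd8 KO against WT, namely Gata1, Klf1, Epor, Ermap, Rhd and Car1, by limma at an adjusted p under 0.05. Over all tested genes, 16.6% were called in that comparison, and 6.98% were called lower. Tfrc was lower in each Chd8 KO library than in each WT library without passing the test, and Car2 and Zfpm1 overlapped between the groups. With Tfrc, 7 of the 9 genes had groups that did not overlap, all lower in Chd8 KO, against 14.4% of all tested genes. In DKO against Chd8 KO, 7 of the 9 rose, the same 6 and Tfrc, against 10.5% of all tested genes called and 6.32% called higher. The groups of these 7 did not overlap, as was so, in the higher direction, for 25.7% of all tested genes. The median log2 fold change of the 9 genes was -1.54 in Chd8 KO against WT and 1.62 in DKO against Chd8 KO, while the median of all tested genes was 0.019 and 0.060. These comparisons share the Chd8 KO libraries. As the 9 genes were chosen with earlier results of these data known, their counts beside the shares of all genes are a description. In bulk RNA of a sorted gate, fewer cells of a type and less RNA per cell cannot be told apart.

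**Figure D1:**
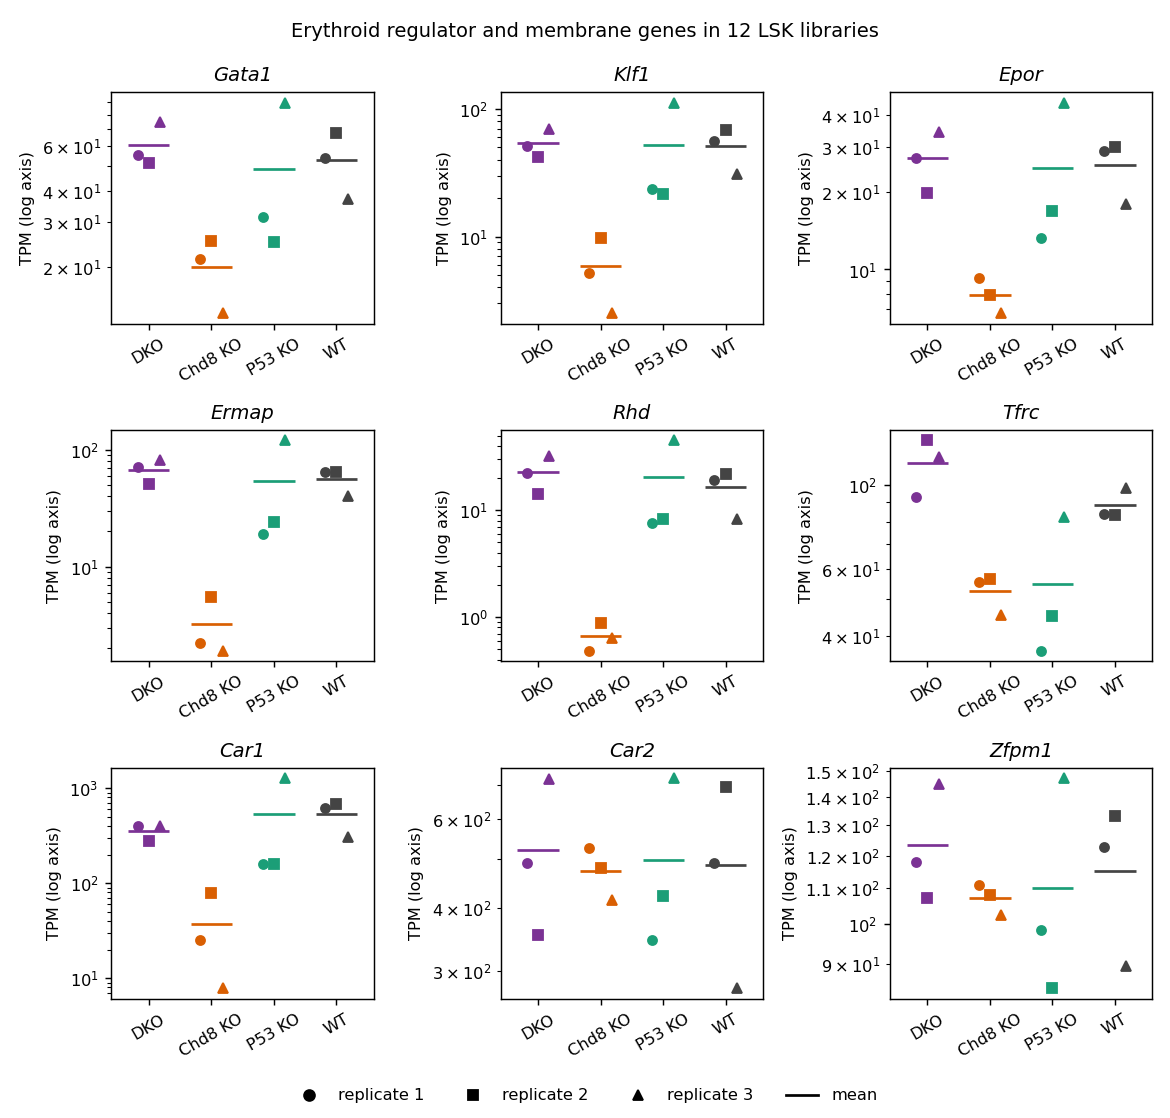
TPM of each of the 9 genes (log axis, 1 panel a gene) in the 12 LSK libraries, with 1 symbol for each replicate and a line at the mean of each genotype. The 3 Chd8 KO libraries lie below all DKO and WT libraries for 7 genes, Car2 and Zfpm1 show no such gap, and P53 KO replicate 3 stands above replicates 1 and 2 in every panel.

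Among the factors, Gata1 (X chromosome, 7959260 to 7976663, GRCm38.p6) stood at 55.5, 51.4 and 74.7 TPM in DKO replicates 1 to 3 and at 21.4, 25.4 and 13.1 TPM in Chd8 KO. P53 KO libraries held 31.6, 25.0 and 89.3 TPM of it, and WT libraries 53.7, 67.8 and 37.2 TPM. Every Chd8 KO library was below every DKO and WT library, while P53 KO replicate 2 lay inside the Chd8 KO range. The mean was 2.65-fold lower in Chd8 KO than in WT, with a log2 fold change of TPM + 1 of -1.37 ± 0.42 (SE, adjusted p = 0.0483). This call lay close to the threshold and held under 9 of 29 alternative settings, with adjusted p between 0.00265 and 0.150. DKO against Chd8 KO gave a change of 1.58 ± 0.42 (adjusted p = 0.038), and that call held under 15 of 29 settings.

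Klf1 (chromosome 8, 84901982 to 84905291) stood at 50.9, 41.7 and 69.5 TPM in DKO, against 5.20, 9.76 and 2.52 TPM in Chd8 KO. The P53 KO libraries gave 23.6, 21.4 and 112 TPM and the WT libraries 55.6, 67.8 and 31.0 TPM. The highest Chd8 KO library was thus below the lowest library of each other genotype. Klf1 was 8.83-fold lower in Chd8 KO than in WT by the means (log2 fold change -3.02 ± 0.60, adjusted p = 0.00702), a call that held under all 29 settings. It was 9.27-fold higher in DKO than in Chd8 KO (3.13 ± 0.60, adjusted p = 0.00972).

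Zfpm1 (chromosome 8, 122281856 to 122337862), the cofactor of GATA1, was at 118, 107 and 145 TPM in DKO and at 111, 108 and 103 TPM in Chd8 KO. P53 KO libraries held 98.6, 84.4 and 147 TPM, and WT libraries 123, 133 and 89.6 TPM. All 4 genotypes overlapped, and the Chd8 KO libraries were the closest together, with an SD of 4.29 TPM around 107 TPM. The change was -0.083 in Chd8 KO against WT, with a 95% interval from -0.53 to 0.36 (adjusted p = 0.822), and 0.19 in DKO against Chd8 KO, from -0.26 to 0.64 (adjusted p = 0.58). Those intervals exclude changes as large as the point estimates of Gata1, Klf1, Epor, Ermap, Rhd and Car1 in the same comparisons. The ratio of Gata1 to Zfpm1 TPM within each library was 0.471, 0.479 and 0.515 in DKO, 0.193, 0.235 and 0.128 in Chd8 KO, 0.320, 0.296 and 0.606 in P53 KO, and 0.438, 0.508 and 0.416 in WT. The Chd8 KO ratios lay below those of the other 3 genotypes. A two-sided exact permutation test gave p = 0.1 for DKO against Chd8 KO and for Chd8 KO against WT, the smallest p that 3 against 3 libraries allow. The ratio of Klf1 to Gata1 was also lower in every Chd8 KO library, at 0.191 to 0.385, against 0.812 to 0.929 in DKO and 0.833 to 1.03 in WT (exact permutation p = 0.1 each).

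Among the receptors, Epor (chromosome 9, 21958897 to 21963576) was at 27.1, 19.9 and 34.3 TPM in DKO and at 9.25, 7.93 and 6.77 TPM in Chd8 KO. The 3 P53 KO libraries gave 13.3, 16.9 and 44.5 TPM, while WT libraries gave 28.8, 29.9 and 18.0 TPM. The Chd8 KO libraries were the 3 lowest of the 12. Epor was 3.20-fold lower in Chd8 KO than in WT (-1.54 ± 0.38, adjusted p = 0.0205) and 3.39-fold higher in DKO than in Chd8 KO (1.62 ± 0.38, adjusted p = 0.0238). The first call was lost when either replicate 1 or 2 of WT, or replicate 2 or 3 of Chd8 KO, was left out, where the adjusted p reached at most 0.0699. The second was lost in 7 of 29 settings, among them leaving out any single Chd8 KO library or DKO replicate 1 or 3, with adjusted p up to 0.275.

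Tfrc (chromosome 16, 32608896 to 32632794) was at 92.7, 131 and 118 TPM in DKO, against 55.4, 56.4 and 45.4 TPM in Chd8 KO. P53 KO libraries had 36.6, 45.3 and 82.2 TPM, against 83.9, 83.1 and 98.1 TPM in WT. Here the P53 KO and Chd8 KO libraries overlapped, all 3 P53 KO libraries lay below all WT libraries, and the lowest library of the 12 was P53 KO replicate 1. In DKO Tfrc was 2.17-fold higher than in Chd8 KO (1.10 ± 0.24, adjusted p = 0.0194) and 2.08-fold higher than in P53 KO (1.12 ± 0.24, adjusted p = 0.0162). It was 1.69-fold lower in Chd8 KO than in WT, a change of -0.74 ± 0.24 that did not pass the test (adjusted p = 0.0616). Among 29 settings, 6 brought that value past the threshold, with an adjusted p down to 0.00591.

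The membrane genes showed some of the widest differences among the 9. Ermap (chromosome 4, 119175457 to 119190013), which codes for an immunoglobulin-like membrane protein of erythroid cells that carries the Scianna blood group in humans, stood at 70.7, 51.1 and 81.0 TPM in DKO and at 2.22, 5.47 and 1.91 TPM in Chd8 KO. P53 KO libraries held 18.8, 24.3 and 120 TPM and WT libraries 64.2, 64.3 and 40.1 TPM. No Chd8 KO library came near the other 9. Ermap was 17.6-fold lower in Chd8 KO than in WT (-3.83 ± 0.58, adjusted p = 0.00193) and 21.1-fold higher in DKO than in Chd8 KO (4.10 ± 0.58, adjusted p = 0.00219).

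Rhd (chromosome 4, 134864536 to 134896172), the Rh blood group protein of the red cell membrane, stood at 22.3, 14.3 and 32.1 TPM in DKO, against 0.484, 0.872 and 0.644 TPM in Chd8 KO. The P53 KO libraries had 7.68, 8.35 and 45.1 TPM, against 19.2, 21.7 and 8.26 TPM in WT. All Chd8 KO values were under 1 TPM, where the log2 scale with 1 added understates a change. On that scale Rhd changed by -3.29 ± 0.58 in Chd8 KO relative to WT (adjusted p = 0.00444), and by 3.78 ± 0.58 in DKO relative to Chd8 KO (adjusted p = 0.00377). The means differed 24.6-fold and 34.3-fold. With 0.1 in place of 1 added to TPM, the changes were -4.34 and 4.86.

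Of the 2 carbonic anhydrases, cytosolic enzymes that convert carbon dioxide to bicarbonate, Car1 (chromosome 3, 14766214 to 14808365) is a known early marker of erythroid progenitors in the mouse. Car1 stood at 397, 276 and 400 TPM in DKO and at 25.2, 79.8 and 7.81 TPM in Chd8 KO. In P53 KO it was at 161, 158 and 1279 TPM, and in WT at 625, 689 and 304 TPM. The Chd8 KO libraries were the 3 lowest and spread over a wide range, with an SD of 37.5 TPM around 37.6 TPM. Car1 was 14.4-fold lower in Chd8 KO than in WT (-4.26 ± 0.87, adjusted p = 0.00822) and 9.51-fold higher in DKO than in Chd8 KO (3.74 ± 0.87, adjusted p = 0.0232). Without Chd8 KO replicate 2 these changes were -5.07 and 4.54, and without Chd8 KO replicate 3 they were -3.47 and 2.94. The call in Chd8 KO against WT held under all 29 settings. That in DKO against Chd8 KO was lost in 7, among them leaving out any single DKO library or Chd8 KO replicate 1 or 3, with adjusted p up to 0.282.

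Car2 (chromosome 3, 14886269 to 14900770), in the same gene cluster, stood at 491, 354 and 720 TPM in DKO and at 525, 481 and 416 TPM in Chd8 KO. It was measured at 345, 423 and 723 TPM in the P53 KO libraries, against 492, 694 and 277 TPM in those of WT. All 4 genotypes overlapped, and the changes were 0.050 in Chd8 KO against WT (95% interval -0.75 to 0.85) and 0.084 in DKO against Chd8 KO (-0.71 to 0.88). The ratio of Car1 to Car2 TPM was 0.808, 0.779 and 0.556 in DKO, 0.0480, 0.166 and 0.0188 in Chd8 KO, 0.465, 0.374 and 1.77 in P53 KO, and 1.27, 0.992 and 1.10 in WT. Car1 thus exceeded or nearly equalled Car2 in WT libraries and was a small part of it in Chd8 KO libraries. The exact permutation test gave p = 0.1 for DKO against Chd8 KO and for Chd8 KO against WT, again the smallest possible.

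**Figure D2:**
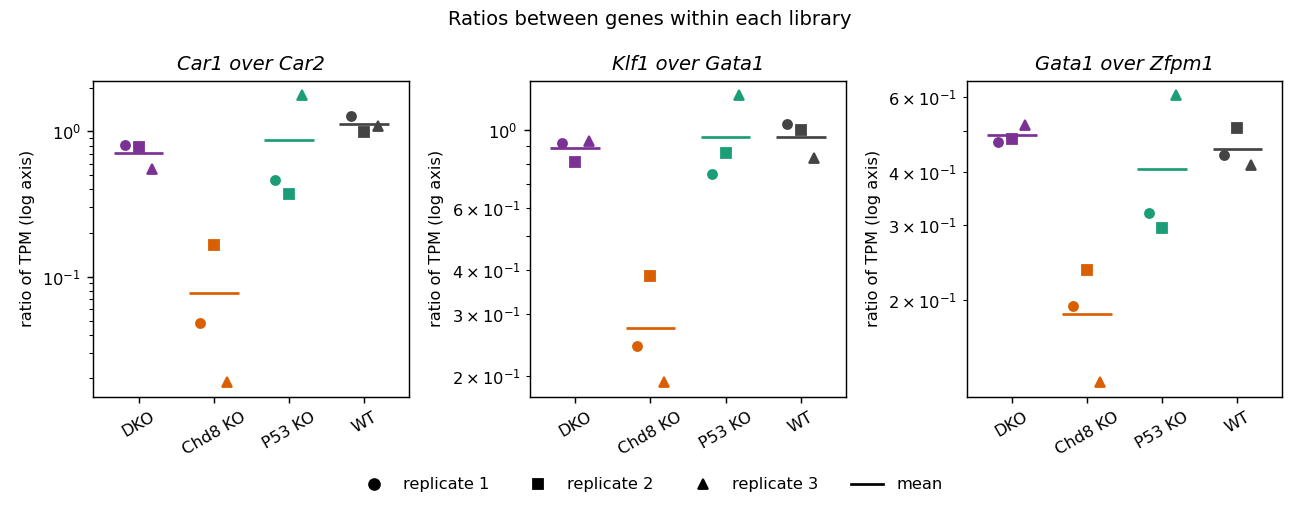
Ratios of TPM within each library (log axis) for Car1 over Car2, Klf1 over Gata1 and Gata1 over Zfpm1, with 1 symbol for each replicate and a line at the mean of each genotype. All 3 ratios are lowest in the Chd8 KO libraries, where Car1 over Car2 lies between 0.0188 and 0.166, against 0.992 to 1.27 in WT.

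Levels in TPM are per transcript length and can be ranked between genes. In DKO the mean TPM ran from Car2 (522) through Car1, Zfpm1, Tfrc, Ermap, Gata1, Klf1 and Epor to Rhd (22.9). In Chd8 KO the order was Car2 (474), Zfpm1, Tfrc, Car1, Gata1, Epor, Klf1, Ermap and Rhd (0.667). In P53 KO it was Car1 (533), Car2, Zfpm1, Tfrc, Ermap, Klf1, Gata1, Epor and Rhd (20.4), and in WT Car1 (539), Car2, Zfpm1, Tfrc, Ermap, Gata1, Klf1, Epor and Rhd (16.4). Ermap, Gata1 and Klf1 overlapped as neighbours in DKO, P53 KO and WT. In Chd8 KO, Gata1 stood apart above Epor, while Epor, Klf1 and Ermap overlapped from each to the next. By mean level, Ermap exceeded 16.1% of the tested genes in Chd8 KO and 76.2% in WT, and Car2 98.0% and 98.1%.

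Klf1 is listed with 1 transcript. The leading transcript of Gata1 held 85.9% to 96.4% of the sum in every library, that of Car1 88.1% to 93.3%, and that of Tfrc 53.2% to 83.6%. Ermap is divided over 9 transcripts, and its leading one, ENSMUST00000138395.7, averaged 23.1 ± 6.99 TPM in DKO, 0.904 ± 1.01 TPM in Chd8 KO, 18.0 ± 20.4 TPM in P53 KO and 19.6 ± 4.78 TPM in WT (SD, n = 3). The next, ENSMUST00000030396.13, averaged 18.7 ± 3.52 TPM in DKO and 0.885 ± 0.767 TPM in Chd8 KO, against 14.9 ± 5.20 TPM in WT. With the most abundant transcript in place of the sum, 5 of the 9 genes were called in Chd8 KO against WT, since Gata1 was lost, and 6 in DKO against Chd8 KO, since Tfrc was lost.

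P53 KO on its own gave no call among the 9 genes against WT (0 of 9 by limma), where 0.182% of all tested genes were called. At an unadjusted p under 0.05, 1 of the 9 passed, Tfrc, with a change of -0.76 ± 0.24 (adjusted p = 0.238). Its groups did not overlap, which held in the lower direction for 7.55% of all tested genes. P53 KO libraries were far apart. Replicate 3 was the highest of all 12 libraries for every one of the 9 genes except Tfrc, and it exceeded the mean of replicates 1 and 2 by 1.61-fold (Zfpm1) to 8.03-fold (Car1). Replicates 1 and 2, the pair from the other run, lay below every DKO and WT library for Gata1, Klf1, Epor, Ermap, Tfrc and Car1. The shares of all tested genes with these patterns were not computed. Replicate 3 was also above replicates 1 and 2 in summed markers of eosinophils (4531 against 1176 and 829 TPM) and B cells (300 against 60.1 and 59.6 TPM). The same held for mast cells and basophils (304 against 146 and 138 TPM), while the LSK gate markers were lower in replicate 3 (917 against 1185 and 1242 TPM). Without P53 KO replicate 3, 2 of the 9 genes were called lower than in WT, Tfrc (-1.10, adjusted p = 0.00395) and Ermap (-1.32, adjusted p = 0.0449). That fit leaves P53 KO with only the pair from the other run. Over all tested genes, leaving out 1 library at a time gave 16 to 1253 calls in this comparison. Within the run of 10 libraries only replicate 3 represents P53 KO, and there the changes against WT were 0.78 for Gata1, 1.17 for Klf1, 1.11 for Ermap and 1.33 for Car1, with no call. With the values of Epor, Rhd and Zfpm1, 7 of the 9 genes turned sign between the fits. Tfrc stayed below 0 within the run (-0.100, adjusted p = 0.942) and Car2 above it (0.66). Run and genotype cannot be told apart for replicates 1 and 2.

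In DKO against P53 KO, 1 of the 9 genes was called, Tfrc, against 14.9% of all tested genes. The call was lost within the run of 10 libraries (0.45, adjusted p = 0.232), in a fit of only the groups compared, and without P53 KO replicate 1, DKO replicate 2 or DKO replicate 3. Without P53 KO replicate 3, which leaves P53 KO with only the pair from the other run, 4 of the 9 genes were called higher in DKO. These were Tfrc, Gata1 (1.06), Ermap (1.59) and Rhd (1.34). Over all tested genes, leaving out 1 library at a time gave 675 to 3089 calls there. In DKO against WT, 0 of the 9 genes were called by limma and 0 had an unadjusted p under 0.05, where 5.23% of all tested genes were called. The estimates ran from -0.53 (Car1, 95% interval -2.44 to 1.39) to 0.49 (Rhd, -0.80 to 1.78). Intervals of this width do not show that DKO and WT were alike.

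The interaction, the Chd8 effect without P53 (DKO against P53 KO) minus the Chd8 effect with P53 (Chd8 KO against WT), tests whether the Chd8 effect differed with P53 status. Of the 9 genes, 3 passed, Ermap (4.61 ± 0.82, adjusted p = 0.0198), Tfrc (1.86 ± 0.35, adjusted p = 0.0242) and Rhd (3.84 ± 0.83, adjusted p = 0.0449), where 1.8% of all tested genes were called. For Ermap the terms were 0.78 in DKO against P53 KO and -3.83 in Chd8 KO against WT, and for Rhd 0.55 and -3.29. For Tfrc they were 1.12 and -0.74. Klf1 (3.46 ± 0.84, adjusted p = 0.0735), Car1 (4.40 ± 1.23, adjusted p = 0.102), Epor (1.82 ± 0.54, adjusted p = 0.122) and Gata1 (1.89 ± 0.59, adjusted p = 0.139) had unadjusted p under 0.05 and did not pass. Car2 (0.032, 95% interval -1.10 to 1.16) and Zfpm1 (0.28, -0.36 to 0.91) gave the smallest values. These counts moved with single libraries. Over all tested genes, leaving out 1 library at a time gave 122 to 1562 calls in the interaction. Without P53 KO replicate 3, 7 of the 9 were called, with values of 5.42 for Ermap and 4.62 for Rhd. Without P53 KO replicate 2, WT replicate 1, Chd8 KO replicate 1 or DKO replicate 3, none was called. Within the run of 10 libraries none was called either, with 2.99 for Ermap, 2.27 for Rhd and 1.20 for Tfrc. Without Chd8 KO replicate 2, Chd8 KO replicate 3, DKO replicate 1 or DKO replicate 2, 1 was called.

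**Figure D3:**
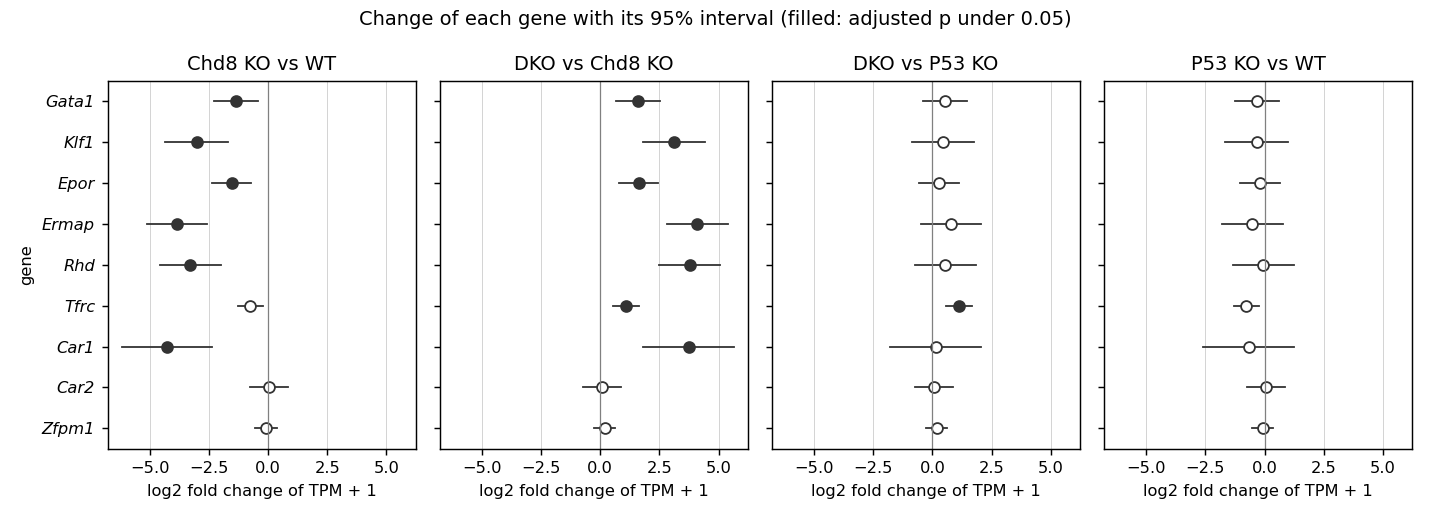
Log2 fold change of TPM + 1 with its 95% interval for each gene (rows) in 4 comparisons (panels), with filled points at an adjusted p under 0.05. There are 6 filled points to the left of 0 in Chd8 KO against WT and 7 to the right of 0 in DKO against Chd8 KO, while 1 is filled in DKO against P53 KO and none in P53 KO against WT.

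The calls in Chd8 KO against WT and in DKO against Chd8 KO involve libraries of a single run, and within that run alone 7 of the 9 were called in each. Leaving out 1 library at a time left 4 to 7 calls in Chd8 KO against WT, and it was 4 when Chd8 KO replicate 2 or 3, or either replicate 1 or 2 of WT, was the one left out. For DKO against Chd8 KO this left 3 to 7, with 3 without Chd8 KO replicate 1, Chd8 KO replicate 3 or DKO replicate 3 and 4 without DKO replicate 1 or 2. Klf1, Ermap and Rhd kept their calls in both comparisons whichever library was left out.

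Markers of red cells and erythroblasts moved with the 9 genes in DKO against Chd8 KO, where 8 of the 8 markers were higher, with a median change of 3.00. Of all tested genes, 6.32% were called higher in that comparison. In P53 KO against WT, 0 of the 8 markers and 0 of the 9 genes were called. In the other comparisons the marker counts parted from those of the 9 genes. Of all tested genes, 6.98% were called lower in Chd8 KO than in WT. The shares called were 14.9% in DKO against P53 KO, 5.23% in DKO against WT and 1.8% in the interaction. Of the 8 markers, 1 was lower in Chd8 KO than in WT, Rhag, the partner of the Rh proteins in the membrane (-1.93 ± 0.57, adjusted p = 0.0419), and the median was -0.87, against 6 of the 9 genes. In DKO against P53 KO 6 of the 8 were higher (median 2.48), against 1 of the 9 genes. In DKO against WT 2 were higher (median 1.79), against 0 of the 9 genes, and in the interaction 5 were called (median 3.68), against 3 of the 9. The 8 summed to 211, 858 and 1116 TPM in DKO, 53.8 to 72.0 TPM in Chd8 KO, 45.8 to 89.2 TPM in P53 KO and 89.9 to 194 TPM in WT, and none was at 0 in all libraries of a genotype. The globins and the sum of the other 4 markers did not share 1 pattern over libraries. Summed globins were 174, 811 and 1050 TPM in DKO, 52.2, 47.7 and 68.6 TPM in Chd8 KO, 51.5, 39.1 and 57.2 TPM in P53 KO, and 174, 78.6 and 77.3 TPM in WT. The sum of Alas2, Slc4a1, Epb42 and Rhag was 37.8, 46.7 and 65.8 TPM in DKO, 5.32, 6.16 and 3.37 TPM in Chd8 KO, 5.76, 6.70 and 32.0 TPM in P53 KO, and 20.6, 16.7 and 12.7 TPM in WT. P53 KO replicate 3, highest for 8 of the 9 genes, was high for the sum of these 4 markers within its genotype but at 57.2 TPM for globins. Rhag was most of that sum there (25.4 TPM, with Epb42 at 4.81 TPM) and in DKO (31.7, 28.9 and 40.7 TPM). Slc4a1 (1.25, 7.09 and 10.7 TPM in DKO) and Alas2 (2.13, 6.26 and 7.24 TPM) were, like the globins, highest in DKO replicates 2 and 3. In P53 KO replicate 3, Slc4a1 was at 0.428 TPM and Alas2 at 1.34 TPM. Of the DKO libraries with high globins, replicate 2 had less Gata1, Klf1, Epor, Ermap, Rhd and Car1 than DKO replicate 1, and replicate 3 had more of each. The part of red cell and erythroblast RNA in the results was not tested.

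**Figure D4:**
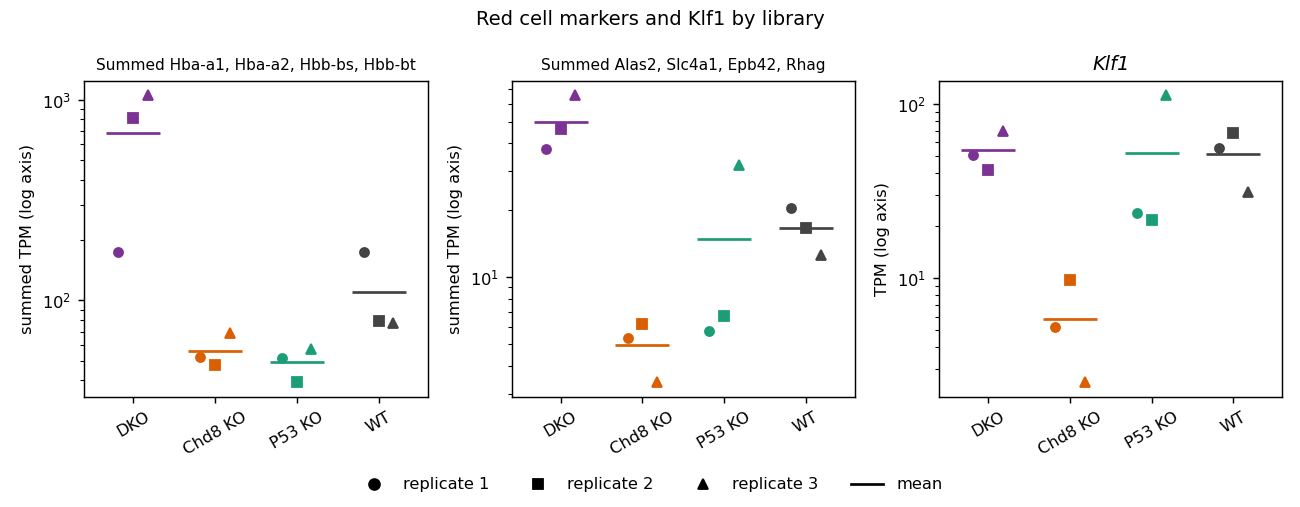
Summed TPM of 4 globin genes, summed TPM of 4 other red cell markers, and TPM of Klf1 (log axes) in each library, with 1 symbol for each replicate and a line at the mean of each genotype. DKO replicates 2 and 3 stand apart in globins (811 and 1050 TPM) and not in Klf1 (41.7 and 69.5 TPM), and P53 KO replicate 3 is high in Klf1 (112 TPM) with globins at 57.2 TPM.

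With DKO replicates 2 and 3 both left out, which leaves 1 DKO library assumed to vary like the other groups, the changes in DKO against Chd8 KO were 3.07 for Klf1, 4.19 for Ermap, 3.81 for Rhd, 3.91 for Car1, 1.48 for Gata1, 1.65 for Epor and 0.82 for Tfrc. Those values were close to the ones from 3 libraries except that of Tfrc, and 0 of the 9 passed (adjusted p from 0.0924 for Ermap upwards). When the Y-linked sum entered the fit as a covariate, 0 passed as well, with changes of 3.15 for Klf1, 4.12 for Ermap and 4.02 for Rhd (adjusted p from 0.0562 for Ermap upwards). The Y-linked level separated all DKO from all Chd8 KO libraries, so the sex of the source animals and the genotype cannot be told apart in that comparison.

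Markers of other lineages moved too. Of all tested genes, 16.6% were called in Chd8 KO against WT and 6.98% called lower. The shares were 10.5% called and 6.32% called higher in DKO against Chd8 KO. Of 7 tested eosinophil markers, 6 were lower in Chd8 KO than in WT and 5 higher in DKO than in Chd8 KO, with sums of 406 to 3124 TPM in DKO, 41.9 to 73.5 TPM in Chd8 KO, 829 to 4531 TPM in P53 KO and 804 to 2139 TPM in WT. Of 7 B cell markers, 5 were lower in Chd8 KO than in WT and 3 higher in DKO than in Chd8 KO, with sums of 131 to 366 TPM in DKO, 43.4 to 51.6 TPM in Chd8 KO, 59.6 to 300 TPM in P53 KO and 134 to 381 TPM in WT. Megakaryocyte markers, from the lineage closest to the erythroid one, summed to 203 to 363 TPM in DKO, 123 to 159.6 TPM in Chd8 KO, 221 to 387 TPM in P53 KO and 204 to 294 TPM in WT. Of 8 tested, 2 were lower in Chd8 KO than in WT, Itga2b (-0.97 ± 0.14) and Gp1bb (-1.14 ± 0.27), and 3 were higher in DKO than in Chd8 KO. Of 10 mast cell and basophil markers, 2 were higher and 4 lower in Chd8 KO than in WT, and 1 was higher and 2 lower in DKO than in Chd8 KO, with sums of 129 to 253 TPM in DKO, 106 to 193 TPM in Chd8 KO, 138 to 304 TPM in P53 KO and 253 to 374 TPM in WT. Neutrophil markers summed to 7.00 to 14.3 TPM in DKO, 67.8 to 294 TPM in Chd8 KO, 10.1 to 12.6 TPM in P53 KO and 11.5 to 828 TPM in WT, so that they lay higher in all Chd8 KO than in all DKO libraries, opposite in direction to the 7 genes called there. Of 6 tested, none was called by limma in either comparison, with a median change of -3.02 in DKO against Chd8 KO, where the smallest adjusted p was 0.0541 (S100a8). The highest sum was that of WT replicate 3, the WT library with the least Gata1, Klf1, Epor, Ermap, Rhd, Car1, Car2 and Zfpm1. In no genotype was any of these markers at 0 in all its libraries, and their part in the results was not tested.

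Within the gate, Slamf1 and Procr, markers of stem cells, were higher in Chd8 KO than in WT (1.36 ± 0.17, adjusted p = 0.000537, and 1.48 ± 0.40, adjusted p = 0.0291). Ly6a was called higher as well (1.01 ± 0.30, adjusted p = 0.044), though its groups overlapped. Flt3, a marker of multipotent progenitors, was lower (-1.44 ± 0.36, adjusted p = 0.0208). DKO libraries were lower than Chd8 KO libraries in Slamf1 (-1.19 ± 0.17) and Ly6a (-1.23 ± 0.30) and higher in Flt3 (1.74 ± 0.36). Procr did not pass there by limma (-1.25 ± 0.40, adjusted p = 0.0705). The part of the make-up of the gate in the erythroid values was not tested.

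Of 18 tested erythroid factors other than the members, 0 rose and 6 fell in Chd8 KO against WT (median -0.050). In DKO against Chd8 KO, 7 rose and 0 fell (median 0.34). Medians of all tested genes were 0.019 and 0.060, with 6.98% called lower in the first comparison and 6.32% called higher in the second. Bcl11a, a repressor of embryonic and fetal globin genes, averaged 75.7 ± 4.97 TPM in DKO, 51.5 ± 4.74 TPM in Chd8 KO and 73.0 ± 5.06 TPM in WT. Its change was -0.50 ± 0.09 in Chd8 KO against WT (adjusted p = 0.00536). Runx1 (-0.49 ± 0.10), Klf3 (-0.69 ± 0.16) and Tcf3 (-0.35 ± 0.09) also fell in Chd8 KO against WT, and all of these 4 rose in DKO against Chd8 KO. These 4 were named for having the smallest p of the 18. The factor Tal1 overlapped between Chd8 KO (64.3 to 74.0 TPM) and WT (52.3 to 69.1 TPM), and ran from 80.4 to 101 TPM in DKO. Gata2, which precedes GATA1 at many sites in progenitors, ran from 99.2 to 127.6 TPM in DKO, 134 to 152 TPM in Chd8 KO, 151 to 171 TPM in P53 KO, and 136 to 163 TPM in WT. All 3 DKO libraries lay below the other 9. It was lower in DKO than in P53 KO (-0.44 ± 0.11, adjusted p = 0.0246), while DKO against Chd8 KO (-0.27 ± 0.11, adjusted p = 0.132) and DKO against WT (-0.33 ± 0.11, adjusted p = 0.104) did not pass.

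Downstream of Epor, of 17 tested genes of erythropoietin receptor signalling, 4 rose and 0 fell in Chd8 KO against WT (median 0.14). Of all tested genes, 16.6% were called there in either direction and 6.98% were called lower. Bcl2l1, the survival gene that STAT5 induces, averaged 39.3 ± 1.86 TPM in Chd8 KO and 23.6 ± 2.79 TPM in WT (0.72 ± 0.11, adjusted p = 0.00166), and Cish, a STAT5-induced inhibitor, 17.2 ± 1.28 and 9.04 ± 1.51 TPM (0.87 ± 0.23, adjusted p = 0.0292). The adaptors Grb2 (0.32 ± 0.06) and Sh2b3 (0.58 ± 0.13) rose as well. The counts in DKO against Chd8 KO were 2 higher and 3 lower, where 10.5% of all tested genes were called and 6.32% called higher. Bcl2l1 (-0.67 ± 0.11), Grb2 (-0.37 ± 0.06) and the feedback inhibitor Socs2 (-1.82 ± 0.39) fell there, and Stat5b (0.31 ± 0.07) rose. These genes also serve other cytokine receptors.

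Around Tfrc, 1 of 16 genes of iron uptake and handling rose and 3 fell in Chd8 KO against WT (median -0.12). Of all tested genes, 16.6% were called there and 6.98% were called lower. The exporter ferroportin, Slc40a1, averaged 15.4 ± 2.49 TPM in DKO, 2.67 ± 1.30 TPM in Chd8 KO and 15.6 ± 2.88 TPM in WT, with changes of -2.23 ± 0.53 in Chd8 KO relative to WT (adjusted p = 0.0176) and of 2.22 ± 0.53 in DKO relative to Chd8 KO (adjusted p = 0.0266). Slc11a2, which carries iron out of the transferrin endosome (-0.93 ± 0.26), and the mitochondrial transporter Abcb10 (-0.59 ± 0.17) fell in Chd8 KO against WT, and Hfe (0.51 ± 0.13) rose. In DKO against Chd8 KO, 4 rose and 0 fell, where 6.32% of all tested genes were called higher. The 4 were Slc25a38, Slc40a1, Ftl1 and Tfr2. Tfr2, another transferrin receptor of erythroid cells, changed by 0.51 ± 0.14 (adjusted p = 0.0445).

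Beside Ermap and Rhd, 8 of 22 other red cell membrane and blood group genes fell and 1 rose in Chd8 KO against WT (median -0.56). In DKO against Chd8 KO, 13 rose and 1 fell (median 0.94). Of all tested genes, 6.98% were called lower in the first comparison and 6.32% higher in the second. Kel, the Kell blood group protease, averaged 1.60 ± 0.731 TPM in Chd8 KO and 23.1 ± 2.62 TPM in WT (-3.25 ± 0.56, adjusted p = 0.00379). Aqp1, the water channel, averaged 14.8 ± 6.06 TPM in Chd8 KO and 124 ± 34.4 TPM in WT (-3.02 ± 0.58), the cytoskeletal gene Add2 0.985 ± 0.582 and 15.0 ± 7.14 TPM (-2.93 ± 0.53), and the urea transporter Slc14a1 17.0 ± 3.96 and 57.1 ± 4.62 TPM (-1.71 ± 0.21). In DKO against Chd8 KO, Add2 (3.82 ± 0.53), the spectrin gene Sptb (2.51 ± 0.39) and Dmtn (1.91 ± 0.22) rose. Bcam, the Lutheran blood group protein, which other tissues express too, went against the rest, at 0.837 ± 0.315 TPM in DKO and 15.6 ± 3.57 TPM in Chd8 KO (-3.16 ± 0.47, adjusted p = 0.00312).

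Of 14 other carbonic anhydrase genes, 6 passed the low-value filter, and 0 of these were called by limma in either comparison. The closest by p in Chd8 KO against WT was Car5b (-0.30 ± 0.17, adjusted p = 0.258), and the highest of them in level was Car9, at 49.1 ± 4.98 TPM in DKO and 43.0 ± 8.25 TPM in Chd8 KO. Of 13 genes of globins and heme synthesis, 1 rose and 0 fell in Chd8 KO against WT, where 16.6% of all tested genes were called. The 1 was Alad, of the second step of heme synthesis, at 209 ± 58.5 TPM in Chd8 KO and 113 ± 24.7 TPM in WT (0.86 ± 0.26, adjusted p = 0.0425). With median-of-ratios scaling or quantile normalization, 0 rose and 1 fell. In DKO against Chd8 KO 8 rose and 1 fell, where 10.5% of all tested genes were called and 6.32% called higher. Among those that rose were globins such as Hba-a1 (162.7 ± 111 TPM in DKO and 9.77 ± 2.96 TPM in Chd8 KO). The labels do not state how reads shared by near-identical globin genes were counted. With DKO replicates 2 and 3 both left out, none of the list counts in DKO against Chd8 KO reached 1 except 4 eosinophil markers that rose and 1 LSK gate marker that fell.

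Over the 12 libraries, the genes outside the 9 with expression most like that of Gata1 were Tnfaip2 (Pearson r = 0.984 on log2(TPM + 1)), Epdr1 (0.984), Daam1 (0.971), Cldn13 (0.962) and Nxpe2 (0.961). They were ranked among 10008 genes that averaged 5 TPM or more, with the 9 and predicted or accession-like gene names left out. Of the 9, Klf1 had an r of 0.967 with Gata1. For the mean of the 9 standardised genes the closest were Slc11a2 (0.980), Epdr1 (0.977), Fech, the last enzyme of heme synthesis (0.970), Daam1 (0.968) and Tnfaip2 (0.968). Epdr1 averaged 18.2 TPM in DKO, 4.03 TPM in Chd8 KO, 15.4 TPM in P53 KO and 14.5 TPM in WT. These r describe 12 libraries that share genotypes and 2 runs, and P53 KO replicate 3 is an extreme point for most of the genes, so no p is given.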

How the data were processed

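RNA was sequenced from 12 LSK libraries. The authors deposited 1 table per library of transcript TPM, transcript abundance per length, with 105129 transcripts, each table summing to 1000000. Depth is therefore unknown. Per the submitters' processing notes, the tools of the series include STAR 2.6.1e, featureCounts 1.6.2 and DESeq2 1.26.0 with the GRCm38 build, without roles. The tool behind the TPM is not stated there.

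Transcript TPM were summed by gene symbol. The 13162 genes that averaged 1 TPM or more went into a limma fit (limma 3.58.1, R 4.3.3) of log2(TPM + 1), with 1 mean per genotype, 8 residual degrees of freedom, a mean-variance trend, two-sided tests and Benjamini-Hochberg adjustment over all genes. Called means an adjusted p under 0.05. The interaction is (DKO minus P53 KO) minus (Chd8 KO minus WT). The fit was tested on simulated data. The genes and the 14 gene lists were chosen with earlier results of these data known. Named from each list were up to 4 genes with the smallest p in Chd8 KO against WT and up to 4 in DKO against Chd8 KO. To these were added, from outside the 9, the 5 genes most like Gata1 and the 5 most like the mean of the 9. Gata2 and Tal1 were added after their values were seen. Alternatives covered pseudocounts (0.1 and 0.5), filters (none and 5 TPM), scaling, variance models, library weights, the run, the replicate block, Y-linked levels, the leading transcript and left-out libraries. Ratios were compared with exact permutation tests in scipy 1.17.1. Ahsp was not matched in the tables. A few genes of the lists are not reported here and stand in none of the list counts or sums. Tables were made in Python 3.11.15 with numpy 2.4.6 and pandas 2.3.3, and plots with matplotlib 3.10.9.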

Additional observations from a re-analysis of the deposited data

Results flagged for a closer look

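For 3 of the 9 genes, the Chd8 effect without P53 (DKO against P53 KO) differed from the Chd8 effect with P53 (Chd8 KO against WT) by limma's interaction test. The difference was 4.61 ± 0.82 on the log2 scale for Ermap (adjusted p = 0.0198), 3.84 ± 0.83 for Rhd (adjusted p = 0.0449) and 1.86 ± 0.35 for Tfrc (adjusted p = 0.0242). All 3 Chd8 KO libraries lay below all 3 WT libraries for each of these genes. All 3 DKO libraries lay above all 3 P53 KO libraries for Tfrc, and the groups overlapped for Ermap and Rhd. Under 28 alternatives the call held in 21 for Ermap, in 15 for Tfrc and in 6 for Rhd. Within the run of 10 libraries, where P53 KO is 1 library, none of the 3 passed.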

How the results depend on the processing

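Alternatives (29 settings, 28 for the interaction, which cannot be fitted on only the groups compared) changed 1 choice at a time. In Chd8 KO against WT, Klf1, Ermap, Rhd and Car1 were called in all 29, Epor in 25, Gata1 in 9 and Tfrc in 6. In DKO against Chd8 KO, Klf1, Ermap and Rhd were called in 27, Epor, Tfrc and Car1 in 22 and Gata1 in 15, and 0 of the 9 genes were called with the Y-linked covariate and 0 without DKO replicates 2 and 3 together. Leaving out 1 library left 3 to 7 calls there, 4 to 7 in Chd8 KO against WT, 0 to 2 in P53 KO against WT, 0 to 4 in DKO against P53 KO and 0 to 7 in the interaction. Over all tested genes the ranges, in the same order, were 524 to 1846, 1154 to 2864, 16 to 1253, 675 to 3089 and 122 to 1562 calls. In DKO against P53 KO, 0 of the 9 were called with only the groups compared, the run covariate, the 10 libraries of 1 run, and DKO replicates 2 and 3 left out. The interaction gave 7 calls with library weights, 1 with the run covariate, the most abundant transcript or the Y-linked covariate, and 0 within 1 run or without DKO replicates 2 and 3 together. The causes were not tested.

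All turned values named here belong to genes without a call. With the run as a covariate, and with the 10 libraries of 1 run alone, the log2 fold changes that turned sign were, in P53 KO against WT, Gata1 0.78, Klf1 1.17, Epor 0.81, Ermap 1.11, Rhd 1.51, Car1 1.33 and Zfpm1 0.37; in DKO against P53 KO, Gata1 -0.57, Klf1 -1.07, Epor -0.73, Ermap -0.84, Rhd -1.02, Car1 -1.86, Car2 -0.53 and Zfpm1 -0.26; in the interaction, Car2 -0.58 and Zfpm1 -0.18. With quantile normalization they were Car2 -0.033 in Chd8 KO against WT, Rhd 0.011 in P53 KO against WT. With the Y-linked covariate they were Car2 -0.11 in Chd8 KO against WT, Rhd 0.053 in P53 KO against WT. With library weights they were Car2 -0.21 in P53 KO against WT, Klf1 -0.061, Epor -0.066 and Zfpm1 -0.0011 in DKO against WT. With median-of-ratios scaling they were Epor -0.015 in DKO against WT, Car2 -0.0043 in DKO against Chd8 KO, Car2 -0.051 in DKO against P53 KO, Car2 -0.090 in the interaction. With the most abundant transcript they were Car2 -0.0030 in P53 KO against WT.

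Leaving out each library in turn turned the sign, with the lowest and highest values, in Chd8 KO against WT, Car2 (-0.31 to 0.35) and Zfpm1 (-0.25 to 0.032); in P53 KO against WT, Gata1 (-0.85 to 0.049), Klf1 (-1.09 to 0.075), Epor (-0.70 to 0.14), Rhd (-0.84 to 0.36), Car2 (-0.30 to 0.36) and Zfpm1 (-0.31 to 0.085); in DKO against WT, Gata1 (-0.014 to 0.41), Klf1 (-0.21 to 0.34), Epor (-0.14 to 0.28), Car2 (-0.22 to 0.44) and Zfpm1 (-0.062 to 0.22); in DKO against Chd8 KO, Car2 (-0.18 to 0.33); in DKO against P53 KO, Epor (-0.058 to 0.78), Car1 (-0.36 to 1.14) and Car2 (-0.18 to 0.39); in the interaction, Car2 (-0.27 to 0.39).

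Same-numbered libraries did not vary together (18 pairs, r of deviations -0.25 to 0.12, with 1 pair over 0.1). Such values cannot tell whether libraries shared a litter or day, and the labels do not say what the numbers mark. With the replicate block, 5 genes were called in Chd8 KO against WT, 0 in P53 KO against WT, 0 in DKO against WT, 6 in DKO against Chd8 KO, 1 in DKO against P53 KO and 2 in the interaction. Median-of-ratios scaling moved the median of all genes by -0.12 in DKO against P53 KO and -0.11 in the interaction, and quantile normalization by -0.11 and -0.13. TPM keep no depth, so no counting error can be given for low genes such as Rhd in Chd8 KO.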
